A study of Mus musculus with 10 samples.

Results

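Wild-type esophageal epithelium of mice was profiled by RNA sequencing in 5 libraries, which are 5 of the 10 libraries of the series. They are the libraries that the labels give as wild type, and they are called wild type 1 to wild type 5 here. Per the labels, 3 doses of 100 mg/kg tamoxifen had been given at intervals of 2 weeks, and the tissue was lysed for RNA around 8 weeks later. Tamoxifen is the ligand that releases CreERT2, a drug-dependent recombinase, in the mutant mice of the series. The wild-type mice received it too, and no untreated wild type was analysed here. Muscle and adventitia were stripped off, the mesenchyme was removed after Dispase digestion, and the RNA came from the whole remaining epithelium with all its layers. Strain, age and sex are not stated in the labels, nor whether each library stands for its own mouse, and the spread between libraries may therefore be partly technical. The remaining 5 libraries, from tamoxifen-treated p63CreERT2;Mst1loxp/loxp;Mst2-/- mice, were not used here, and no comparison between groups was made. Every value in the results below is therefore a description with no test between groups.

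The lining of the mouse esophagus is a stratified squamous epithelium. Basal cells divide on the basement membrane, under control of the transcription factor p63, and make the keratins Krt5, Krt14 and Krt15. Daughter cells that leave the basal layer switch to the keratins Krt4 and Krt13, tie themselves together with desmosomes and load proteins and lipids for the surface. In the top layers the enzyme family of transglutaminases links small proline-rich, late cornified envelope and related proteins into a tough shell, which in rodents forms a cornified sheet.

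The deposited values are FPKM, fragments scaled to the length of the gene and the size of the library, and levels of different genes are compared on this scale, which is per length. The estimated depth was 14400000 to 16440000 fragments per library. Between 11024 and 11606 genes reached 1 FPKM in each library. Of 56691 genes in the table, 31318 were listed at 0 in all 5 libraries and 11345 had a mean of at least 1 FPKM. The mean reached 5 FPKM for 6371 genes, 100 FPKM for 414 and 1000 FPKM for 46. Pairs of libraries had Pearson correlations of 0.934 to 0.974 over the log2(FPKM + 1) values of the genes with a mean of at least 5 FPKM, which is a correlation across genes, and genes are not independent replicates. All 5 genes chosen to mark this epithelium were present in every library. Krt13 (chromosome 11) ranged from 34632 to 38781 FPKM, Krt4 (chromosome 15) from 24692 to 30280.4 FPKM and Sprr3 (chromosome 3) from 3056 to 7694 FPKM. Krt5 (chromosome 15), for the basal layer, ranged from 1275 to 2534 FPKM, and Trp63 (chromosome 16), the gene of p63, from 31.2 to 46.5 FPKM.

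The suprabasal keratin pair dominated the transcript pool. Values of the 5 libraries are given in the order wild type 1 to 5 throughout. Krt13 was at 34632, 38781, 37272, 35130.1 and 38003 FPKM, a mean of 36763 ± 1808 (SD, n = 5). Its partner Krt4, the type II keratin that forms filaments with it, was at 28236, 24692, 30280.4, 25631 and 28731 FPKM, a mean of 27514 ± 2300.1. They were the 2 highest genes in each of the 5 libraries. Krt13 alone held 9.27% ± 0.259 of the summed FPKM and the pair 16.2% ± 0.804 (SD, n = 5). All 55 keratin genes together held 17.6% ± 0.862, so that Krt13 and Krt4 made up nearly all of the keratin transcript. On the log2(FPKM + 1) scale Krt13 had an SD of 0.071 and Krt4 of 0.12, both below the median SD of 0.22 among genes with a mean of at least 5 FPKM.

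A small number of genes held much of the pool. The 10 most abundant genes held 28.6% ± 1.01 of the summed FPKM, with 29.2, 28.96, 28.6, 26.8 and 29.3% in the single libraries. The 30 most abundant held 40.2% ± 1.57, the 100 most abundant 53.3% ± 1.40 and the 500 most abundant 69.6% ± 1.35. A share of 50% of the summed FPKM was reached with 70, 63, 72, 89 and 60 genes. Wild type 4 was thus the library with the flattest distribution, and the 10 genes of highest mean FPKM over the 5 libraries held their lowest share in it.

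**Figure D1:**
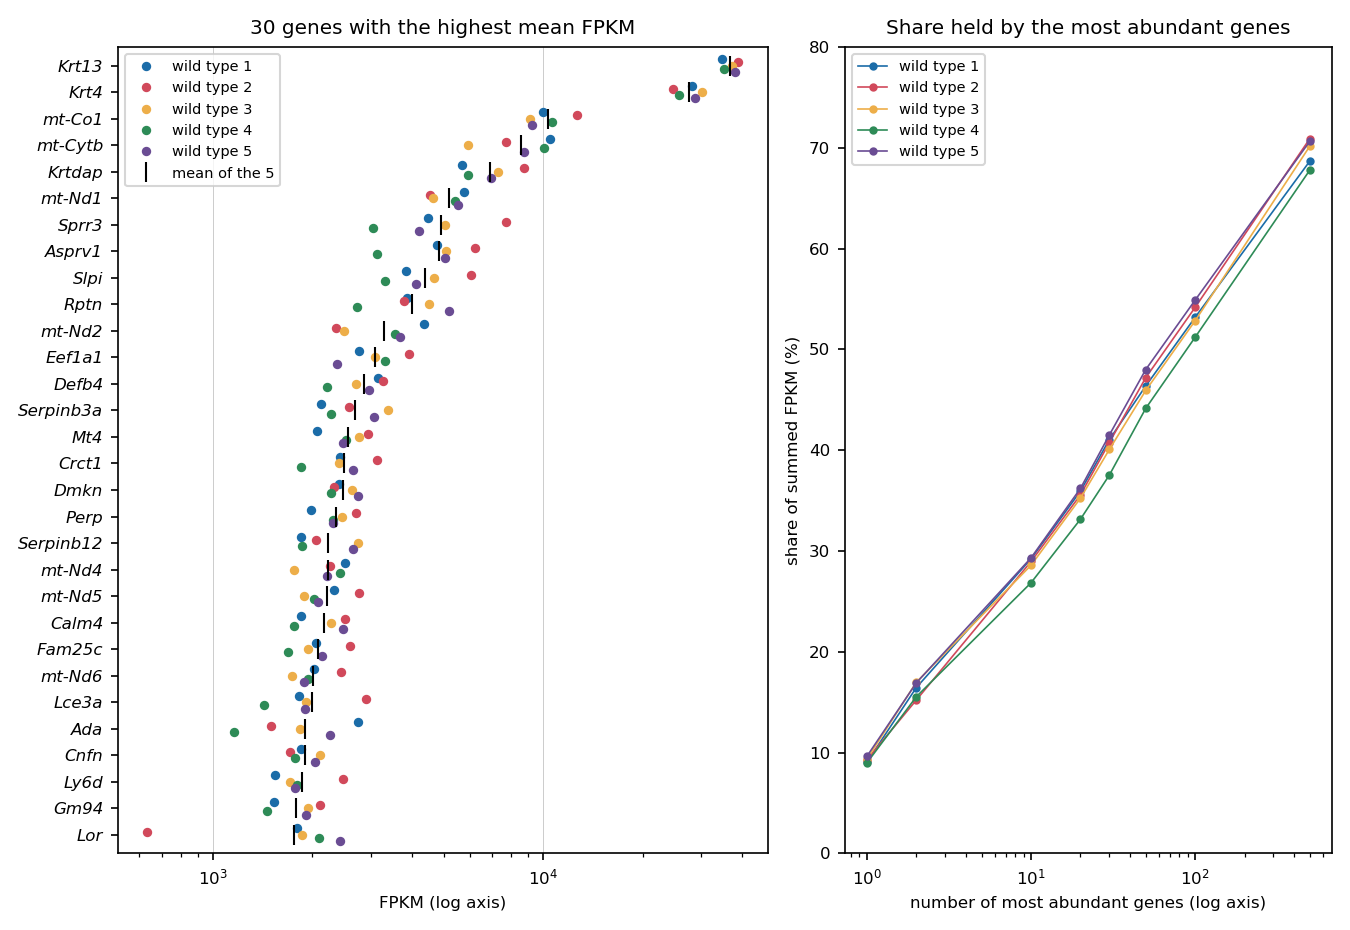
Left, FPKM (log axis) of the 30 genes with the highest mean in wild-type esophageal epithelium, with 1 point per library and a bar at the mean of the 5. Right, share of the summed FPKM (%) in each library held by the 1 to 500 genes of highest mean. Krt13 and Krt4 stand apart from all other genes, Lor of wild type 2 lies at 634 FPKM below the other libraries, and the line of wild type 4 runs lowest from 10 genes on.

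The mitochondrial genome gave 7 of the 30. Among these mt-Co1, a subunit of cytochrome c oxidase, was at 9972, 12679.7, 9084, 10612 and 9218 FPKM, and mt-Cytb, of the cytochrome bc1 complex, at 10455, 7685, 5902, 10037 and 8739 FPKM. The other mitochondrial genes in the list code for subunits of the NADH dehydrogenase, namely mt-Nd1 at 4549 to 5747 FPKM, mt-Nd2 at 2354 to 4349.7, mt-Nd4 at 1757 to 2513, mt-Nd5 at 1888 to 2766 and mt-Nd6 at 1741 to 2440.4. Together the 37 mitochondrially encoded genes held 8.84% ± 1.05 of the summed FPKM, lowest at 7.28% in wild type 3 and highest at 10.0% in wild type 1. Since mt-Co1 and mt-Nd4 share much of their sequence with other genes, their levels and this share are uncertain. The translation factor Eef1a1 was the only gene of the protein synthesis machinery among the 30, at 2778, 3911, 3099, 3313 and 2374 FPKM.

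Several secreted and surface proteins of squamous cells were among the 30. Krtdap, a secreted protein of differentiating keratinocytes, was at 5686, 8721, 7311, 5899 and 6921 FPKM. Sprr3, the small proline-rich protein of the esophageal cornified envelope, was at 4478, 7694, 5055, 3056 and 4195 FPKM. It was highest in wild type 2 and lowest in wild type 4, and its SD of log2 values was 0.48. Asprv1, an aspartic protease of the skin that processes profilaggrin, was at 4760.1, 6191, 5058, 3145 and 5044 FPKM, with the same highest and lowest library as Sprr3. Slpi, a secreted inhibitor of leukocyte elastase, was at 3851, 6029, 4654, 3319.5 and 4117 FPKM, again highest in wild type 2 and lowest in wild type 4. Rptn, which codes for repetin of the cornified envelope, had 3869, 3780.2, 4495, 2727 and 5178 FPKM and was lowest in wild type 4 but highest in wild type 5.

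Further down the list stood the beta-defensin Defb4 at 3157, 3277, 2716, 2221 and 2961 FPKM, an antimicrobial peptide, and Mt4, the metallothionein of stratified squamous epithelia, at 2062, 2949.8, 2765, 2538 and 2485 FPKM. The serine proteinase inhibitors Serpinb3a and Serpinb12 had means of 2688 ± 537 and 2237 ± 438 FPKM. Perp, a desmosomal membrane protein and p63 target, had a mean of 2356 ± 264 FPKM, the secreted protein Dmkn 2481 ± 204 and the calmodulin-like protein Calm4 2175 ± 356. Crct1 of the epidermal differentiation complex had 2494 ± 466 FPKM, Cnfn, the envelope protein cornifelin, 1898 ± 174 and the membrane-anchored Ly6d 1860.5 ± 356. Fam25c had 2084 ± 332 FPKM and the predicted gene Gm94 1791 ± 281. Ada, the adenosine deaminase, was at 2752, 1504, 1839, 1156 and 2263 FPKM and varied more than most of the 30, with an SD of 0.49. The late cornified envelope gene Lce3a was at 1821, 2915, 1908, 1429 and 1895 FPKM. Lor, the gene of loricrin, was at 1804, 634, 1856, 2102 and 2426 FPKM, and its SD of 0.77 was the highest among the 30. Wild type 2 alone accounted for the low end of Lor, and the other 4 libraries lay between 1804 and 2426 FPKM.

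The genes of the basal list held a much smaller part of the summed FPKM than those of the lists for the layers above. These are lists of chosen genes, and their shares are not the shares of the layers. The 21 genes of the basal list held 0.978% ± 0.213 of the summed FPKM, against 19.99% ± 1.05 for the 21 genes of the suprabasal list and 6.52% ± 0.844 for the 47 genes of the cornified envelope list. Krt13 and Krt4, both in the suprabasal list, held 16.2% ± 0.804 between them. In bulk RNA, fewer cells of a type and less RNA per cell cannot be told apart. All 21 basal genes had a mean of at least 1 FPKM and 19 had a mean of at least 5 FPKM. Krt5, the type II keratin of basal cells, was at 1469, 1275, 1592, 2534 and 1719 FPKM. Krt14, the type I keratin that pairs with Krt5, was at 417, 519, 772, 1244 and 646 FPKM. Krt15, another type I keratin of basal cells, was at 1119, 1368, 516, 859.95 and 713 FPKM. Krt5 and Krt14 were highest in wild type 4, whereas Krt15 was highest in wild type 2 and lowest in wild type 3.

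Genes that anchor basal cells to the basement membrane were lower than the basal keratins. Col17a1, the collagen of the hemidesmosome, was at 171, 114, 84.5, 172 and 123 FPKM. The integrin genes Itgb1, Itgb4 and Itga6 had means of 39.3 ± 8.42, 32.5 ± 8.53 and 19.7 ± 6.01 FPKM, and Lamb3, a chain of laminin-332, had 20.3 ± 4.24 FPKM. Trp63 was at 38.4, 38.1, 31.2, 46.5 and 39.97 FPKM and Sox2, the transcription factor of the foregut, at 55.5, 36.8, 52.6, 65.7 and 51.4 FPKM. The adhesion genes Bcam and Cd44 had means of 36.6 ± 9.07 and 65.7 ± 3.09 FPKM, and Cd44 had an SD of 0.067 on the log2 scale, the smallest of the list. The basal genes with the largest SD were Krt14 (0.60), Krt15 (0.55), Dst (0.54), which links hemidesmosomes to keratin, and Dlk2 (0.51). Of the 19 members with a mean of at least 5 FPKM, 14 were highest in wild type 4 and 12 were lowest in wild type 3. Over all genes at that level wild type 4 was highest for 29.0% and wild type 3 lowest for 16.5%. The summed FPKM of the basal list was 3584, 3637, 3282, 5285 and 3562.

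The suprabasal list held genes of small to moderate spread and genes that varied widely. Of its 18 members with a mean of at least 5 FPKM, 14 lay above the median SD of 0.22 of all genes at that level. Besides Krt13, Krt4, Krtdap, Dmkn and Calm4, the high members were Tgm3, the transglutaminase that links envelope proteins, at 1215 ± 223 FPKM, the keratin Krt78 at 732 ± 124, the secreted suprabasin Sbsn at 435 ± 39.1 and the membrane protein Emp1 at 157 ± 31.5. Their SDs on the log2 scale lay between 0.071 and 0.28. Against these stood 6 of the 18 members with a mean of at least 5 FPKM that had an SD of at least 1, as 0.973% of all genes at that level did. They were Krt6a, Krt6b, Krt10, Krt16, Krt17 and Mal, and they are described with the variable genes. Rhcg, an ammonium transporter of the suprabasal layers, was listed at 0 in all 5 libraries.

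The cornified envelope genes were abundant as a group, and 27 of the 47 had a mean of at least 100 FPKM. After Sprr3 and Rptn, the next were Lce3a, Cnfn and Lor, given above, and then other late cornified envelope genes. Lce3f had a mean of 1411 ± 363 FPKM, Lce3b 1389 ± 299, Lce3c 1092 ± 255, Lce3e 837 ± 223 and Lce1a1 796 ± 189. Lce3f was at 1245, 1973, 1289, 1018 and 1532 FPKM, highest in wild type 2, as were Lce3a, Lce3b, Lce3c and Lce3e. The remaining Lce3 gene of the list, lower and not described here, was highest in wild type 3. Lce1a1 was at 821, 676, 774, 609 and 1101 FPKM, highest in wild type 5. Lce1d and Lce1c had means of 612 ± 165 and 608 ± 182 FPKM and were also highest in wild type 5. Lce genes share sequence with each other, so the split of reads among them is uncertain. Ivl, the gene of involucrin, was low, at 1.90, 5.41, 2.53, 0.65 and 1.77 FPKM, and Flg, the gene of filaggrin, was at 2.31, 0.69, 9.45, 2.03 and 10.6 FPKM. Of the 38 members with a mean of at least 5 FPKM, 16 were highest in wild type 5, 11 in wild type 2 and 9 in wild type 3. Wild type 2 and wild type 4 were lowest for 14 each, and wild type 4 was highest for 0. Of all genes with a mean of at least 5 FPKM, 8.37% were highest in wild type 5 and 31.8% in wild type 2. For wild type 3 and wild type 4 this share was 12.1% and 29.0%. The lowest library was wild type 2 for 31.4% of these genes and wild type 4 for 10.9%.

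**Figure D2:**
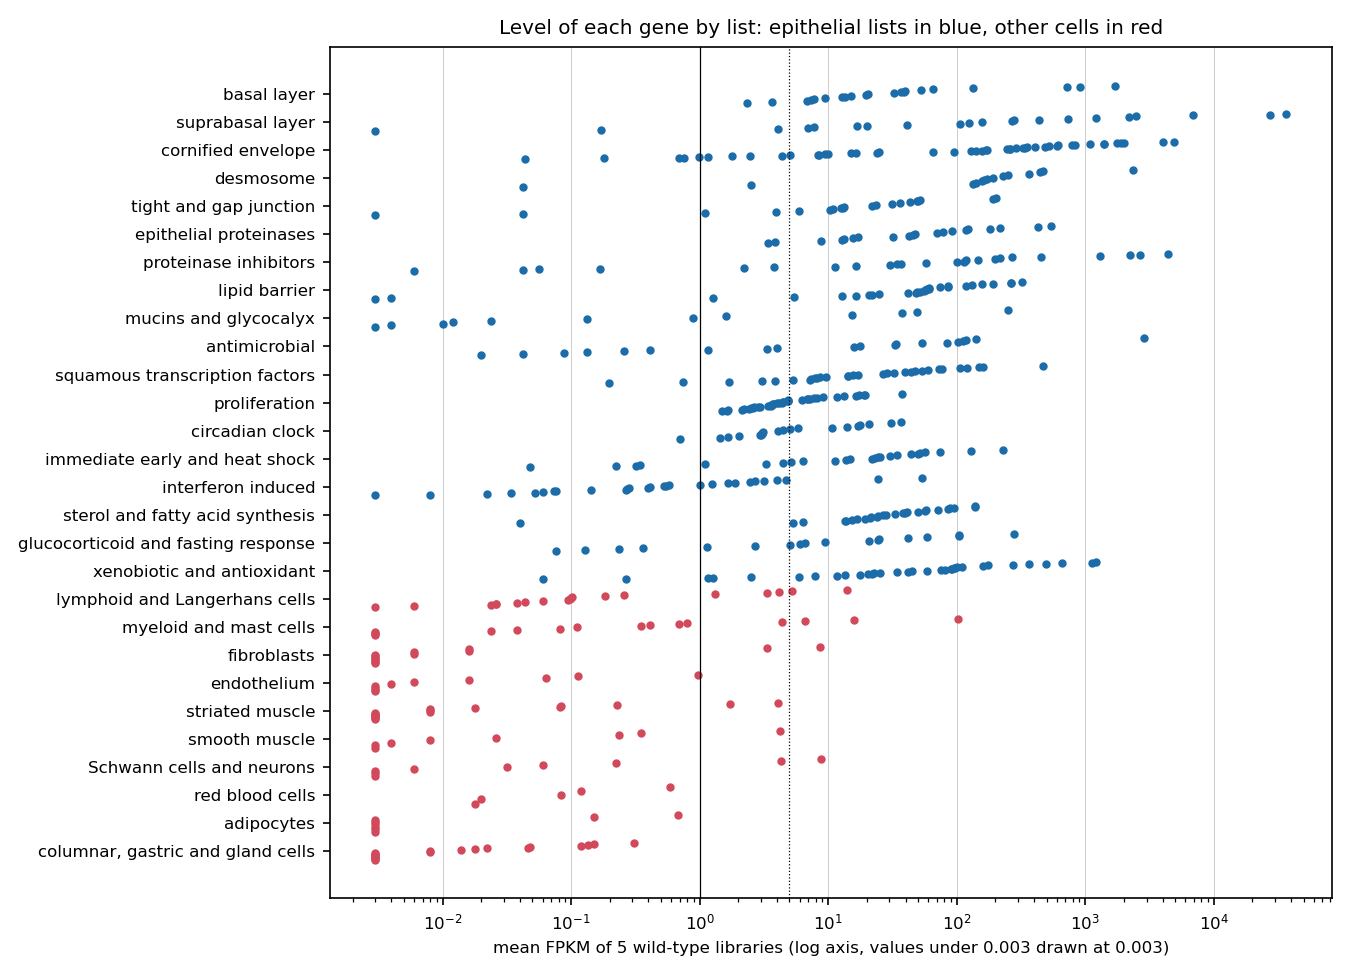
Mean FPKM (log axis) over the 5 wild-type libraries of each gene in the 28 lists, with 1 point per gene. Lists of epithelial genes are in blue, lists of other cell types in red, and the vertical lines mark 1 and 5 FPKM. The suprabasal and cornified envelope lists reach furthest to the right, and most genes of muscle, endothelium, adipocytes and columnar cells lie under 1 FPKM.

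Desmosomes, the junctions that hold squamous cells together, were represented by 12 of 14 genes with a mean of at least 100 FPKM. Perp led, followed by the plakophilin Pkp1 at 503, 294, 469, 544 and 529.5 FPKM and Dsp, the gene of desmoplakin, at 514, 248.5, 450.1, 497 and 505 FPKM. Both were lowest in wild type 2. Cdsn, the corneodesmosin of the outermost cells, was at 239, 108, 359.9, 239.6 and 315 FPKM, and its SD of 0.67 was the largest of the list. Jup, the gene of plakoglobin, was also lowest in wild type 2, at 169.8, 87.2, 170.1, 186 and 176 FPKM. The desmosomal cadherins were present in both their upper and lower layer forms. Dsc1 and Dsg1a, of the upper layers, had means of 364 ± 53.6 and 190.1 ± 30.8 FPKM. Dsc3 and Dsg3, of the lower layers, had 133 ± 18.6 and 164 ± 30.4 FPKM, and Dsg2, of simple epithelia, had 2.51 ± 0.491 FPKM. Dsc2 had 229.9 ± 55.8 FPKM, Dsg1b 172 ± 26.0 and Pkp3 141 ± 25.5. Dsg1a and Dsg1b share much of their sequence, so their split is uncertain.

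The highest genes of the list of tight and gap junctions were connexins, the channel proteins of gap junctions. Gjb2 was at 171, 105, 236, 228 and 274 FPKM and had the largest SD of the list at 0.54. Gja1 was at 170.2, 181, 233, 155 and 211 FPKM. Gjb5, another connexin, was at 22.2, 24.7, 23.8, 23.6 and 23.1 FPKM, with an SD of only 0.055. Among tight junction genes Cldn4 was at 49.8 ± 3.70 FPKM, the adhesion molecule F11r at 49.0 ± 3.41, the scaffold Tjp1 at 36.3 ± 7.83 and Cldn1 at 13.0 ± 4.09. Ocln, the gene of occludin, was at 10.4, 17.97, 9.63, 9.29 and 7.07 FPKM, with wild type 2 highest. Cldn3 was listed at 0.

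The kallikrein proteinases, which cut the links between surface cells as these are shed, were at medium to high levels. Klk14 was at 659, 401, 628, 502 and 510.01 FPKM and Klk10 at 540.4, 386, 489.6, 399 and 343 FPKM. Klk11, Klk13 and Klk8 had means of 218 ± 16.1, 183 ± 34.3 and 122 ± 16.4 FPKM, and Klk7 and Klk5 of 69.8 ± 16.9 and 15.7 ± 3.87 FPKM. The membrane-bound serine proteinases Tmprss11a and Tmprss11d, of the airway trypsin family, had 119 ± 45.7 and 91.6 ± 17.2 FPKM. Tmprss11a had the largest SD of the proteinase list among members with a mean of at least 5 FPKM, 0.57, with 116, 152, 74.4, 176 and 74.8 FPKM.

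Inhibitors of proteinases held 3.16% ± 0.521 of the summed FPKM, against 0.529% ± 0.0602 for the proteinases. Spink5, whose protein LEKTI blocks kallikreins, was at 417, 566, 511, 310.2 and 452 FPKM. The clade B serpins Serpinb5 and Serpinb11 had means of 270.2 ± 46.9 and 197 ± 35.3 FPKM, and the cystatins Cstb and Cst3 217 ± 48.4 and 147 ± 26.1 FPKM. Apart from Serpinb3c and its neighbour in sequence Serpinb3b, the largest SDs among members with a mean of at least 5 FPKM were those of Stfa3 (0.65) and Serpinb1a (0.41).

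Most genes of the lipid barrier were present, and their spread was near that of all genes. Of 29 genes 26 had a mean of at least 5 FPKM, with a median SD of 0.24. Alox12b, the lipoxygenase that acts on the ceramides of the envelope, was at 359, 289, 343, 254 and 355 FPKM, whereas its partner Aloxe3 was at 66.8, 34.3, 31.2, 30.6 and 44.9 FPKM. Degs1, which desaturates dihydroceramide, had a mean of 267 ± 50.8 FPKM, the fatty acid elongases Elovl4 and Elovl1 265 ± 36.7 and 193 ± 27.8, the ceramide synthase Cers3 119 ± 26.0 and the lipid transporter Abca12 48.6 ± 7.42. The largest SD belonged to the desaturase Degs2, at 2.72, 2.57, 7.50, 3.71 and 10.8 FPKM (0.77). Wild type 4 was lowest for 14 of the 26 genes, against 10.9% of all genes at that level. Synthesis of sterols and fatty acids had the lowest median SD of the 18 lists of epithelial genes, at 0.21 over 26 genes. Hmgcs1, which makes the precursor of mevalonate, was at 136, 137, 155, 148 and 123 FPKM and the sterol demethylase Cyp51 at 77.4, 102, 99.04, 86.3 and 81.2 FPKM.

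Of the 12 measured genes of the mucin and glycocalyx list, 4 had a mean of at least 5 FPKM. The membrane mucin Muc15 was at 34.7, 50.2, 37.8, 26.2 and 39.7 FPKM, and Muc16 was listed at 0. The small surface glycoprotein Cd24a had a mean of 251 ± 32.6 FPKM and Fut2, which makes the H antigen, 15.4 ± 1.13. Epcam, an adhesion molecule of epithelia, was at 59.4, 61.7, 69.8, 26.4 and 29.1 FPKM, so that wild type 4 and wild type 5 lay under the other 3 libraries. Antimicrobial genes other than Defb4 were S100a7a at 142 ± 30.5 FPKM, the defensins Defb14 and Defb1 at 111 ± 22.3 and 83.9 ± 25.5, and the peptidoglycan recognition proteins Pglyrp3 and Pglyrp4 at 54.2 ± 12.8 and 32.9 ± 6.32. Defb6 was at 13.6, 32.2, 11.2, 12.2 and 19.8 FPKM, highest in wild type 2.

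Among the squamous transcription factors Hopx, a homeodomain protein without DNA binding of its own, was the most abundant at 452, 604, 538, 307 and 445 FPKM. Ehf and Klf4, which act in differentiating squamous cells, had means of 159 ± 39.1 and 149 ± 34.4 FPKM. Pitx1 and Barx2 had 120 ± 20.7 and 105 ± 15.2 FPKM, Klf5 76.3 ± 11.4, Zfp750 73.3 ± 15.0, Grhl1 59.8 ± 5.72 and Pax9, a regulator of esophageal differentiation, 53.6 ± 9.92. Sox15 had 47.3 ± 10.5 FPKM. Foxe1 and Elf5 varied more than most genes, with SDs of 0.62 and 0.56. Elf5 was at 16.1, 25.1, 10.4, 9 and 10.9 FPKM and Foxe1 at 12.7, 11.6, 5.10, 13.5 and 5.31 FPKM, the latter with wild type 3 and wild type 5 under the other 3.

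Cell cycle genes were low and varied more than most genes. All 39 measured members of the proliferation list had a mean of at least 1 FPKM, and 14 had a mean of at least 5 FPKM, with a median SD of 0.58 against 0.22 for all genes at that level. Mki67, the marker of cycling cells, was at 6.33, 9.61, 18.7, 9.04 and 14.9 FPKM. Top2a, the topoisomerase that untangles chromosomes, was at 3.27, 7.04, 17.2, 7.02 and 10.8 FPKM and Cdc20, an activator of the anaphase complex, at 6.46, 7.17, 22.2, 13.1 and 17.7 FPKM. These mitotic genes were highest in wild type 3 and lowest in wild type 1. Mcm4, of the replicative helicase, was at 3.34, 3.73, 6.57, 14.6 and 5.96 FPKM and Mcm6, of the same complex, at 4.55, 4.79, 6.96, 14.2 and 5.72 FPKM. Pcna, the clamp of DNA polymerase, was at 12.8, 17.1, 20.9, 28.9 and 16.6 FPKM. The replication genes were highest in wild type 4 and lowest in wild type 1. Ccnd2, a cyclin of the start of the cycle, followed neither order, with 22.9, 24.5, 7.89, 25.4 and 6.95 FPKM. Of the 14 genes, 7 were highest in wild type 3, 7 in wild type 4 and 12 lowest in wild type 1. Over all genes with a mean of at least 5 FPKM these shares were 12.1%, 29.0% and 17.4%.

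Clock genes varied more than any other epithelial list with at least 5 such genes. Their median SD was 0.66 over 9 genes with a mean of at least 5 FPKM. Dbp, a transcription factor driven directly by the clock, was at 22.6, 12.04, 1.25, 16.4 and 1.73 FPKM. Tef, of the same family, was at 33.6, 20.98, 8.28, 27.6 and 13.1 FPKM, and the repressor Nr1d1 at 52.7, 29.9, 13.8, 35.6 and 22.8 FPKM. Nr1d2 had 25.3, 23.6, 7.17, 21.3 and 10.9 FPKM and Per3 9.21, 5.42, 2.28, 8.10 and 4.13 FPKM. Wild type 3 was lowest and wild type 5 next for these 5 genes, and wild type 1 was highest. Arntl, the activator of the clock, which runs opposite in phase to Dbp, was at 2.59, 2.48, 4.71, 0.96 and 4.09 FPKM, highest in wild type 3 and wild type 5. Wild type 3 was lowest for 7 and wild type 1 highest for 7 of the 9 genes, against 16.5% and 18.8% of all genes at that level. The time of day at which tissue was taken is not given in the sources used here.

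Immediate early genes rise within minutes of handling in many tissues. Fos was at 3.13, 5.34, 1.89, 3.46 and 2.48 FPKM, Egr1 at 7.84, 4.21, 3.02, 5.82 and 4.88 and Junb at 53.2, 43.6, 48.1, 58.3 and 45.2. The list, which also holds heat shock genes, had a median SD of 0.27, and 15 of its 18 genes with a mean of at least 5 FPKM lay above the median SD of all genes at that level. Its largest SD was that of the mitochondrial chaperonin Hspe1 (0.69), at 14.8, 42.1, 30.3, 23.3 and 12.4 FPKM. Hspb1, the small heat shock protein of keratinocytes, was the most abundant at 231 ± 32.1 FPKM. Interferon-induced genes were mostly near the floor, with 2 of 28 reaching a mean of 5 FPKM. These were Ifi27 at 55.3, 72.6, 37.2, 59.5 and 42.1 FPKM and Ifi202b at 15.2, 53.01, 17.2, 21.7 and 15.4 FPKM. In the list of the glucocorticoid and fasting response, the metallothioneins Mt2 and Mt1 had means of 280.4 ± 49.1 and 104 ± 23.8 FPKM and the cell cycle inhibitor Cdkn1a 105 ± 11.7. Klf9 was at 7.52, 6.89, 2.12, 5.66 and 3.21 FPKM and Txnip at 70.7, 78.2, 39.4, 71.8 and 35.6 FPKM, both with wild type 3 and wild type 5 under the other 3 libraries.

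Enzymes that handle foreign compounds and oxidants were abundant and varied. The list had a median SD of 0.44, and 10 of its 29 genes with a mean of at least 5 FPKM had an SD of at least 0.5, against 4.82% of all genes at that level. Aldh3a1, an aldehyde dehydrogenase, was at 1289, 835, 723, 1468 and 1778 FPKM and the glutathione transferase Gsta4 at 922, 1618, 1289.8, 927 and 887 FPKM. Gsto1, of the same enzyme class, was even, at 582, 646, 713, 682 and 652 FPKM. The cytochrome P450 Cyp2f2 was at 795, 692, 307, 407 and 295 FPKM, with wild type 1 and wild type 2 above the other 3 libraries. Cyp2a5, another cytochrome P450, was at 81.3, 76.2, 3.65, 38.99 and 10.5 FPKM, and the carbonyl reductase Cbr2 at 101, 184, 36.7, 53.1 and 32.2 FPKM, in both cases also with wild type 1 and wild type 2 highest. Adh1, an alcohol dehydrogenase that can act on retinol, was at 50.9, 40.5, 9.01, 34.9 and 35.2 FPKM and low in wild type 3 alone. Gstm1, Adh7, Gstm2, Gpx2 and Nqo1 had means of 367 ± 94.8, 273 ± 94.1, 176 ± 65.6, 160.2 ± 26.1 and 109.9 ± 31.9 FPKM. Aldh1a1, a retinal dehydrogenase, was at 1.69, 11.9, 2.97, 6.71 and 6.53 FPKM.

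Transcripts of other cell types were scarce. The 8 adipocyte, 5 red cell, 10 endothelial and 19 columnar, gastric and gland genes all had means under 1 FPKM, and Adipoq, Cdh5, Kdr, Atp4b and Tff1 were listed at 0 in all 5 libraries. Of the 16 striated muscle genes, 14 had means under 1 FPKM, with Tnni2 at 4.38, 4.47, 3.71, 3.37 and 4.35 FPKM and Mylpf at 1.44, 1.62, 2.42, 1.30 and 1.89 FPKM, while Myh1, Myh2, Myh4 and Ttn were listed at 0. The summed FPKM of this list ran from 5.02 to 6.67. Of the fibroblast genes, Dcn was at 6.59, 6.44, 4.42, 11.9 and 13.6 FPKM and Sparc at 4.15, 3.94, 1.10, 4.52 and 3.08 FPKM, with Col1a2 listed at 0 and Col1a1 at no more than 0.01 FPKM. In the smooth muscle list Smtn was at 7.49, 2.61, 3.71, 3.70 and 3.68 FPKM and Myh11 and Des were listed at 0. Of the nerve list, Mbp was at 10.5, 6.96, 8.01, 8.98 and 9.14 FPKM and Tubb3 at 2.38, 1.37, 11.5, 5.32 and 0.72 FPKM, with Sox10 listed at 0.

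Transcripts of immune cells differed between libraries. Cd207, the langerin gene of Langerhans cells, was at 0.65, 0.46, 0.64, 1.77 and 3.04 FPKM. Cd74, the invariant chain of class II antigen presentation, was at 6.75, 4.33, 9.22, 21.2 and 28.3 FPKM, and H2-Ab1, of the same pathway, at 4.05, 2.31, 4.62, 7.80 and 7.60 FPKM. H2-Eb1, also of class II, was at 2.66, 0.98, 3.11, 5.89 and 8.10 FPKM. All 4 genes were higher in wild type 4 and wild type 5 than in the other 3 libraries. The summed FPKM of the lymphoid and Langerhans list was 15.8, 10.2, 20.4, 43.3 and 55.7, and the B cell gene Ms4a1 was listed at 0. The summed FPKM of the myeloid and mast cell list was 53.4, 79.5, 196, 236 and 97.3, highest in wild type 4 and wild type 3. Most of it came from S100a9, with a mean of 103 ± 60.9 FPKM, and S100a8, with 15.9 ± 18.1 FPKM, both also made by keratinocytes. Cd68 and Cxcr2 had means of 6.63 ± 2.82 and 4.38 ± 2.85 FPKM, and the neutrophil gene Ly6g and the mast cell genes Cpa3, Cma1 and Mcpt4 were listed at 0.

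The libraries differed from each other well beyond counting error, and by a modest amount for most genes. Over the 6371 genes with a mean of at least 5 FPKM the median SD of log2(FPKM + 1) was 0.22, against a median of 0.0463 for counting error at these depths. The 10th and 90th percentiles of the SD were 0.11 and 0.40. An SD of at least 0.5 was seen for 307 genes (4.82%), of at least 1 for 62 (0.973%) and of at least 2 for 15. The median SD was no lower at high levels. It was 0.21 for means of 5 to 20 FPKM, 0.22 for 20 to 100 FPKM, 0.29 for 100 to 1000 FPKM and 0.28 above 1000 FPKM.

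By correlation, wild type 2 stood farthest from the other libraries. The 4 pairs that included it had the 4 lowest Pearson correlations, 0.934 to 0.946, and the other pairs had 0.948 to 0.974. Among the 6371 genes, pairs with wild type 2 had 151 to 258 genes at least 2-fold apart on the log2(FPKM + 1) scale, and the other pairs had 65 to 199. The pair of wild type 4 and wild type 5 had the fewest. Without wild type 2 the median SD was 0.174. Its deviation ran with the base composition of the transcript. When genes were put in 5 equal classes by GC content, its median deviation from the mean of the 5 libraries was 0.19 on the log2 scale in the class of lowest GC content and -0.25 in the class of highest. In wild type 4 the same medians were 0.022 and 0.16, in wild type 1 -0.051 and 0.076, in wild type 5 -0.10 and 0.033, and in wild type 3 -0.015 and -0.023. Wild type 2 was also higher for short transcripts, with a median deviation of 0.21 in the shortest of 5 classes and -0.086 in the longest. In wild type 1 the same medians were -0.13 and 0.11, in wild type 5 -0.16 and -0.0061, in wild type 3 0.0072 and -0.037 and in wild type 4 0.10 and 0.05. When the GC trend was removed from each library, an alternative chosen after seeing the data, the median SD was 0.195, the number of genes with an SD of at least 1 was 62 and 48 of the 50 most variable genes were shared. Of the 6371 genes, 18 were at least 2-fold lower in wild type 2 than in each other library, and 8 were at least 2-fold higher. In wild type 3 the same counts were 17 and 21, so by this count wild type 3 departed more. Each of the remaining libraries had at most 5 in either direction. The median GC content of the 18 lower genes of wild type 2 was 52.9%, over the 17 with a value, against 49.9% for all genes with a mean of at least 5 FPKM. It ran from 39.4% for Serpinb3c and 52.0% for Rpl3 to 68.3% for Lor among those named here. The part of base composition in these low values was not tested.

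**Figure D3:**
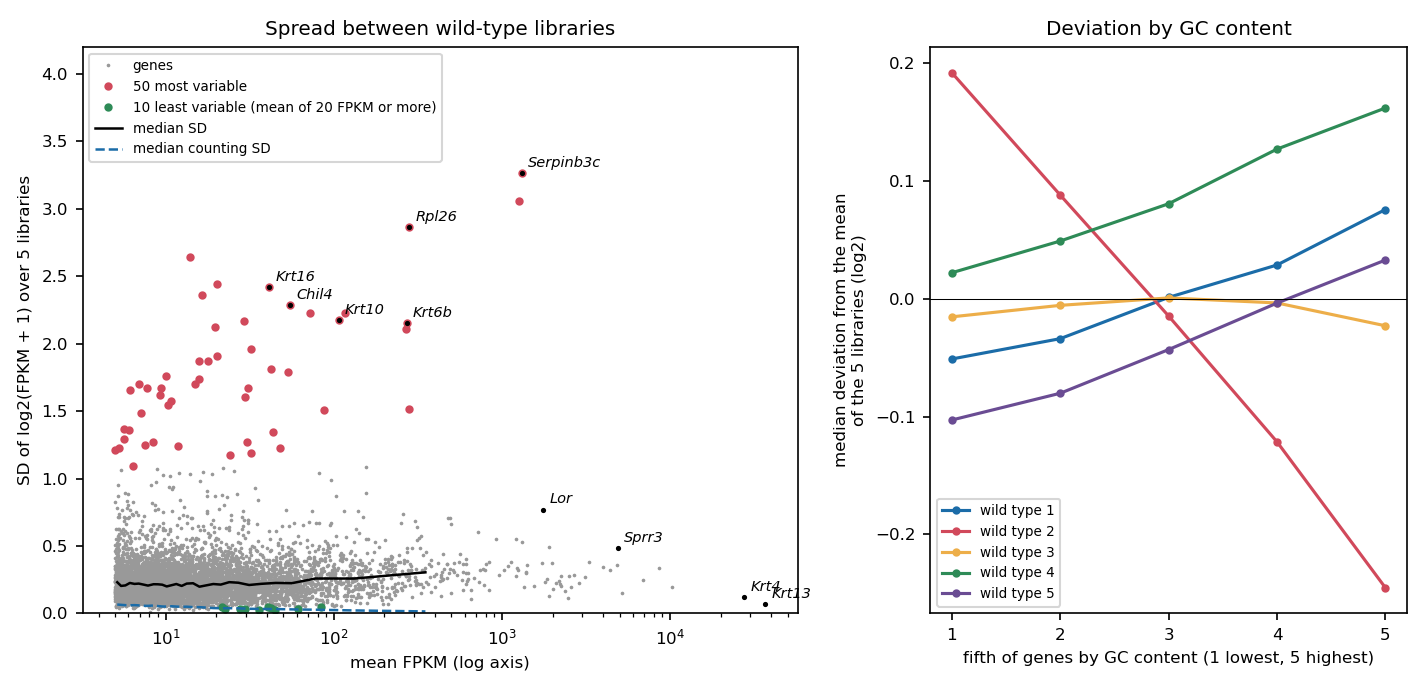
Left, SD of log2(FPKM + 1) over the 5 wild-type libraries against mean FPKM (log axis) for genes with a mean of at least 5 FPKM, with the 50 most variable genes in red, the 10 least variable with a mean of at least 20 FPKM in green, and lines for the median SD and the median counting SD. Right, median deviation of each library from the mean of the 5 (log2) in 5 equal classes of genes by GC content. Krt13 and Krt4 lie near the bottom right of the left panel, Serpinb3c at the top, and the line of wild type 2 falls from 0.19 to -0.25 across the right panel.

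The 50 most variable genes had SDs from 1.09 to 3.26, and the next, Rpl3-ps1, had 1.09. They comprised 30 protein-coding genes, 14 pseudogenes, 5 of other kinds and 1 without an entry in the annotation. Of the 49 genes with a sequence in the annotation, 26 (53.1%) shared at least 0.2 of their 31-base sequences with another gene, against 15.9% of all genes with a mean of at least 5 FPKM. Wild type 3 was the highest library for 19 of the 50 and wild type 2 the lowest for 19. At that expression level wild type 3 was highest for 12.1% of all genes and wild type 2 lowest for 31.4%. When wild type 3 was left out, 36 of the 50 were shared with the 50 then most variable.

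**Figure D4:**
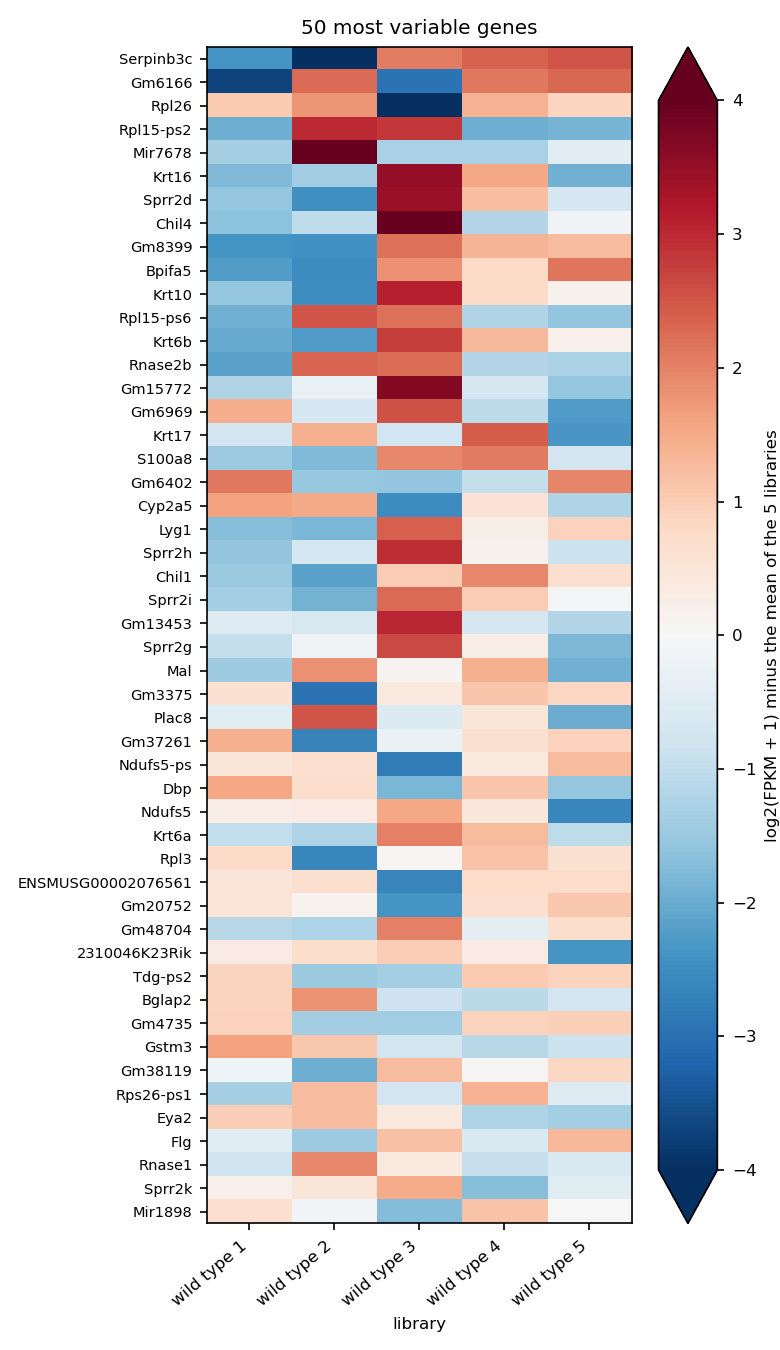
Deviation of log2(FPKM + 1) from the mean of the 5 wild-type libraries for each of the 50 most variable genes (rows, ordered by SD) in each library (columns), on a colour scale from -4 to 4. The column of wild type 3 holds the highest value for 19 of the 50 genes, among them Krt16, Krt10, Krt6b, Chil4 and 5 Sprr2 genes.

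Among the protein-coding genes of the 50 were 5 keratins, of the kinds made in wounded skin and in the epidermis. Krt16, a type I keratin that appears in wounds and in rapidly dividing squamous epithelium, was at 3.05, 4.28, 157, 39.5 and 2.68 FPKM. Krt6b, a type II partner of Krt16 and Krt17, was at 30.1, 25.2, 855, 306 and 142 FPKM, and Krt6a, its close copy, at 89.7, 74.5, 721, 426 and 87.2 FPKM. Krt10, the suprabasal keratin of the epidermis, was at 14.3, 7, 389, 74.7 and 49.9 FPKM. All 4 were highest in wild type 3 and next highest in wild type 4, and wild type 1 and wild type 2 lay below both. Krt17, a further wound keratin, was at 5.64, 29, 5.64, 59.5 and 1.22 FPKM, highest in wild type 4 and at the same level in wild type 3 as in wild type 1. Without wild type 3 the SD of Krt16 went from 2.42 to 1.64, that of Krt6b from 2.15 to 1.72 and that of Krt10 from 2.18 to 1.51. Krt6b shared 0.503 of its 31-base sequences with Krt6a, and its fragments per 1000000 summed with its partners still had an SD of 1.70. Krt16 shared 0.519 of its sequences with other genes, and reads could be split with the much more abundant Krt14, so its level is uncertain.

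Genes of the Sprr2 family were high in the same library. These are small proline-rich envelope proteins encoded side by side on chromosome 3, close to Sprr3. Sprr2g is annotated as a polymorphic pseudogene. Sprr2d was at 1.07, 0.09, 65.3, 12.8 and 2.77 FPKM and Sprr2i at 2.69, 1.55, 44.6, 18.1 and 8.18 FPKM. Sprr2h was at 0.79, 2.29, 39.96, 5.05 and 1.94 FPKM and Sprr2g at 1.93, 4.21, 34.5, 5.83 and 0.65 FPKM. Wild type 3 was highest for each of these 4, and wild type 4 next. Sprr2k, at 21.8, 26.2, 53.8, 5.09 and 13.1 FPKM, was also highest in wild type 3 but lowest in wild type 4. Sprr1b, another family member, was at 80.3, 69.9, 326, 127 and 178 FPKM (SD 0.89), and Sprr3, by contrast, was not highest in wild type 3. Sprr1a was at 319, 403, 398, 348 and 235 FPKM, and Sprr2a1 at 6.38, 8.79, 10.6, 8.44 and 8.06 FPKM with an SD of 0.23, so that the family did not vary as 1 block.

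The 250 bases before the annotated start of 4 variable Sprr2 genes and of Sprr3 are shown as a description of sequence. They were chosen after the values were seen, the 4 being highest in wild type 3 and Sprr3 not. The sequences of Sprr1b, Sprr2a1 and Sprr2g are not shown, although each of these was also highest in wild type 3. A link between motifs and levels was not tested. Sequences are from RefSeq on GRCm38.p6, which is not the build of the deposited table. Capitals mark matches, on either strand, to the AP-1 motif TGANTCA, the octamer ATGCAAAT, which reads ATTTGCAT on the other strand, and the TATA box TATAAA. The motifs do not overlap in these sequences. Sprr2d lies at chr3:92338890-92339139, Sprr2h at chr3:92385435-92385684, Sprr2i at chr3:92407741-92407990 and Sprr2k at chr3:92432332-92432581, all on the plus strand, and Sprr3 at chr3:92458721-92458970 on the minus strand.
Sprr2d: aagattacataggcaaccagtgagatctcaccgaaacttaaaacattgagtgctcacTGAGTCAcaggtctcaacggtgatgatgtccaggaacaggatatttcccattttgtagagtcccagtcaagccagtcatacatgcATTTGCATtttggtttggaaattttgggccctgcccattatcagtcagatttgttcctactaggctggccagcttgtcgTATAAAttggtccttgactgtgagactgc
Sprr2h: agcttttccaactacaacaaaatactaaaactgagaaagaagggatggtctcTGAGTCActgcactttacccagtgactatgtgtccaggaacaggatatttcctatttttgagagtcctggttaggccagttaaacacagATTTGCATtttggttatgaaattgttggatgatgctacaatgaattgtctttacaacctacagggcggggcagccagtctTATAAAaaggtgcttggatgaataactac
Sprr2i: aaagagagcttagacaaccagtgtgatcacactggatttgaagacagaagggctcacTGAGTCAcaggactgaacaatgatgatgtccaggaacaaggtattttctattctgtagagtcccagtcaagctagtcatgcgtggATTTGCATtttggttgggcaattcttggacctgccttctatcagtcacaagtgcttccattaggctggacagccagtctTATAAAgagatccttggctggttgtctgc
Sprr2k: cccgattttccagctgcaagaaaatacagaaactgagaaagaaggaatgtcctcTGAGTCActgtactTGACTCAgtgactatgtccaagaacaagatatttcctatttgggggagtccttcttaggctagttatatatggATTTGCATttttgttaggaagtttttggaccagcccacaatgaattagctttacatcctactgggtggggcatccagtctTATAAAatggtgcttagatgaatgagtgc
Sprr3: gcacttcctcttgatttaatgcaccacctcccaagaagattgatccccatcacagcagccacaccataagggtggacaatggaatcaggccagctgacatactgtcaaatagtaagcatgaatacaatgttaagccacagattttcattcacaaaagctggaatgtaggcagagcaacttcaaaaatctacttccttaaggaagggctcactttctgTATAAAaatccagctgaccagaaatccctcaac
All 4 Sprr2 sequences shown hold the 3 motifs, and the Sprr3 sequence holds the TATA box alone. The octamer starts 108 bases before the start of Sprr2d and Sprr2i and 109 bases before that of Sprr2h and Sprr2k. Sprr2k has 2 AP-1 matches, 196 and 182 bases before its start. Among all 32851 promoter sequences of this length, 6.75% hold TGANTCA, 1.60% the octamer and 12.4% the TATA box, and 14 hold all 3. The 4 genes are members of 1 family with shared sequence, so their motifs are not independent, and a match is a description of the sequence.

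Serpinb3c had the largest SD of the genes with a mean of at least 5 FPKM. It is a clade B serine proteinase inhibitor on chromosome 1 and was at 83.6, 17, 1788, 2203 and 2460.2 FPKM. The 3 high libraries lay between 1788 and 2460.2 FPKM, among the most abundant genes of the tissue, and wild type 1 and wild type 2 lay between 17.0 and 83.6 FPKM. At the lowest value it still had about 442 fragments. Serpinb3b, its closest copy, was at 75.1, 48.6, 149.9, 129 and 176 FPKM, and Serpinb3a, the abundant member of the group, was at 2122, 2580.3, 3398, 2271 and 3067 FPKM with an SD of 0.29. The sum of Serpinb3c and Serpinb3b in fragments per 1000000 kept an SD of 2.49. Wild type 1 and wild type 2 were also lowest for Bpifa5, a secreted protein of the family of bactericidal permeability-increasing proteins, at 11.6, 9.31, 209.6, 98.1 and 258 FPKM. Chil1, a chitinase-like protein, was at 2.72, 1.37, 20.2, 38.99 and 15.6 FPKM, with the same 2 libraries lowest.

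Further secreted and immune genes varied with 1 or 2 libraries high. Chil4, a chitinase-like lectin made in inflamed mouse airways, was at 4.02, 6.77, 245, 6.05 and 13.2 FPKM, so that wild type 3 alone was high. Its SD without wild type 3 was 0.62. Lyg1, a goose-type lysozyme, was at 8.44, 7.62, 158, 35.1 and 56.7 FPKM, also with wild type 3 highest. S100a8, whose protein pairs with that of S100a9 to bind calcium and zinc in neutrophils and stressed keratinocytes, was at 2.29, 1.65, 33.7, 37.5 and 4.29 FPKM, and S100a9 was at 41.5, 63.1, 143, 188 and 79.1 FPKM. Both were highest in wild type 4 and wild type 3. Of other neutrophil genes in the myeloid list, Cxcr2 was at 1.41, 8.04, 6.56, 2.13 and 3.77 FPKM, highest in wild type 2, and Ly6g was listed at 0 in all 5 libraries. The part of neutrophils in the S100a8 and S100a9 values was not tested. Rnase2b, an eosinophil-type ribonuclease, was at 1.14, 46.9, 43.9, 3.18 and 2.96 FPKM, high in wild type 2 and wild type 3. Rnase1, the pancreatic-type ribonuclease, was at 13.03, 90.8, 30.9, 11.97 and 15.02 FPKM, highest in wild type 2.

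Mal, a lipid raft protein of the suprabasal esophagus, was at 1.05, 18.5, 4.95, 13.8 and 0.44 FPKM and Plac8 at 1.92, 22.3, 1.79, 4.77 and 0.04 FPKM. Both were highest in wild type 2, next in wild type 4 and lowest in wild type 5. Eya2, a transcriptional coactivator, was at 8.61, 10.3, 5.34, 1.05 and 0.88 FPKM, with wild type 4 and wild type 5 under the other 3. Bglap2, a copy of the osteocalcin gene, was at 11.4, 22.5, 2.80, 2.20 and 2.97 FPKM, and the glutathione transferase Gstm3 at 18.3, 12.3, 2.75, 1.95 and 2.50 FPKM. Both were highest in wild type 1 and wild type 2 and share sequence with relatives. The short transcripts Mir7678 and Mir1898, annotated as microRNA genes, were also among the 50. Mir7678 was at 0.93, 95.2, 0.98, 0.97 and 2.57 FPKM and Mir1898 at 8.79, 4.61, 0.84, 12.5 and 5.13 FPKM. At their lengths these are 1 to 106 and 1 to 15 fragments, and the libraries were not made for small RNA.

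For a further group of variable genes, a gene was low in the library where its copy was high. Rpl26, a protein of the large ribosomal subunit on chromosome 11, was at 294, 479, 3.17, 373 and 257 FPKM. Its processed pseudogene Gm15772 on chromosome 5 was at 38.6, 73.99, 1146, 55.5 and 30.1 FPKM. Over the 438 bases that align, the 2 transcripts in GENCODE M21 differ at 2 positions. A stretch of 60 bases around the first of these is shown as a description of sequence, with the differing base in capitals.
Rpl26: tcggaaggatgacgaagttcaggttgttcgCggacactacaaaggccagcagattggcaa
Gm15772: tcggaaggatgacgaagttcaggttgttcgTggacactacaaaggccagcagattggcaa
In estimated fragments, computed with gene lengths from the annotation, Rpl26 had 6410, 10848, 66, 7806 and 6091 and Gm15772 255, 508, 7231, 352 and 217. In wild type 3 nearly all of these fragments were thus assigned to the pseudogene. The sum of both ran from 384 to 725 fragments per 1000000, and its SD on the log2 scale was 0.35, against 2.91 for Rpl26 alone on the same scale.

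The same opposite pattern was seen for other pairs. Rpl3, of the large ribosomal subunit, had 5349, 487, 3168, 6670 and 5273 fragments and Rpl3-ps1 1256, 7292, 2929, 1663 and 1201, with wild type 2 low in the gene and high in the copy. Ndufs5, a subunit of mitochondrial complex I, had 115, 124, 285, 125 and 5 fragments and Ndufs5-ps 145, 173, 10, 130 and 275. Their sum was 17.0 to 20.5 fragments per 1000000 in every library. Psmb5, a catalytic subunit of the proteasome, had 346, 971, 789, 532 and 442 fragments and Gm3375 413, 25, 335, 567 and 528. In these pairs a library low in 1 copy was high in the other, and the sum had a smaller SD than either part. The cause of the opposite values was not tested.

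In other cases a pseudogene varied beside a parent gene that was much higher. Gm6166, a copy of Fabp5, the fatty acid-binding protein of keratinocytes, had 203, 13603, 334, 11485 and 14608 fragments, and Fabp5 46524, 48669, 68732, 42570 and 51722. Gm8399, a copy of the actin gene Actg1, had 102, 101, 2677, 1507 and 1597 fragments against 5640, 5526, 5132, 6120 and 6854 for Actg1. Rpl15-ps2 had 2, 349, 289, 2 and 3 fragments and Rpl15 695, 1123, 910, 786 and 636. Tdg-ps2 had 154, 16, 17, 166 and 166 and its parent Tdg, a DNA glycosylase, 312, 591, 648, 376 and 415. Gm4735, a copy of the enolase gene Eno1, had 876, 168, 155, 848 and 972 and Eno1 3430, 6235, 6034, 3547 and 3667. In these pairs the sum is mostly the parent, so a small SD of the sum says little about the copy. The SD of the sum was above that of the parent for Actg1 (0.28 against 0.12) and Rpl15 (0.54 against 0.35). It was below that of the parent for Fabp5, Tdg and Eno1. Of the 50 genes, 29 had a partner sharing at least 0.1 of their sequences, and for 16 of them the sum with the partners had an SD under 0.5. In 20 of the 29 the partners were higher on average than the gene. The other processed pseudogenes among the 50 were Rpl15-ps6, Gm6969, Gm6402, Gm13453 and Rps26-ps1, each at its highest between 29.4 and 97.0 FPKM. Sprr2g, annotated as a polymorphic pseudogene, is also counted among the 14 pseudogenes. The remaining genes with predicted names included 2310046K23Rik at 42.99, 56.3, 68.2, 42.7 and 5.84 FPKM and the long noncoding RNA Gm20752 at 6.41, 4.66, 0, 7.19 and 9.81 FPKM. For Krt6a and Krt6b, whose partners are about as abundant as the genes, the SD of the sum was 1.70. For Serpinb3c, Chil4, Cyp2a5, Lyg1 and Sprr2i the sum is mostly the gene itself, so its SD says little about opposite values in the copies.

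**Figure D5:**
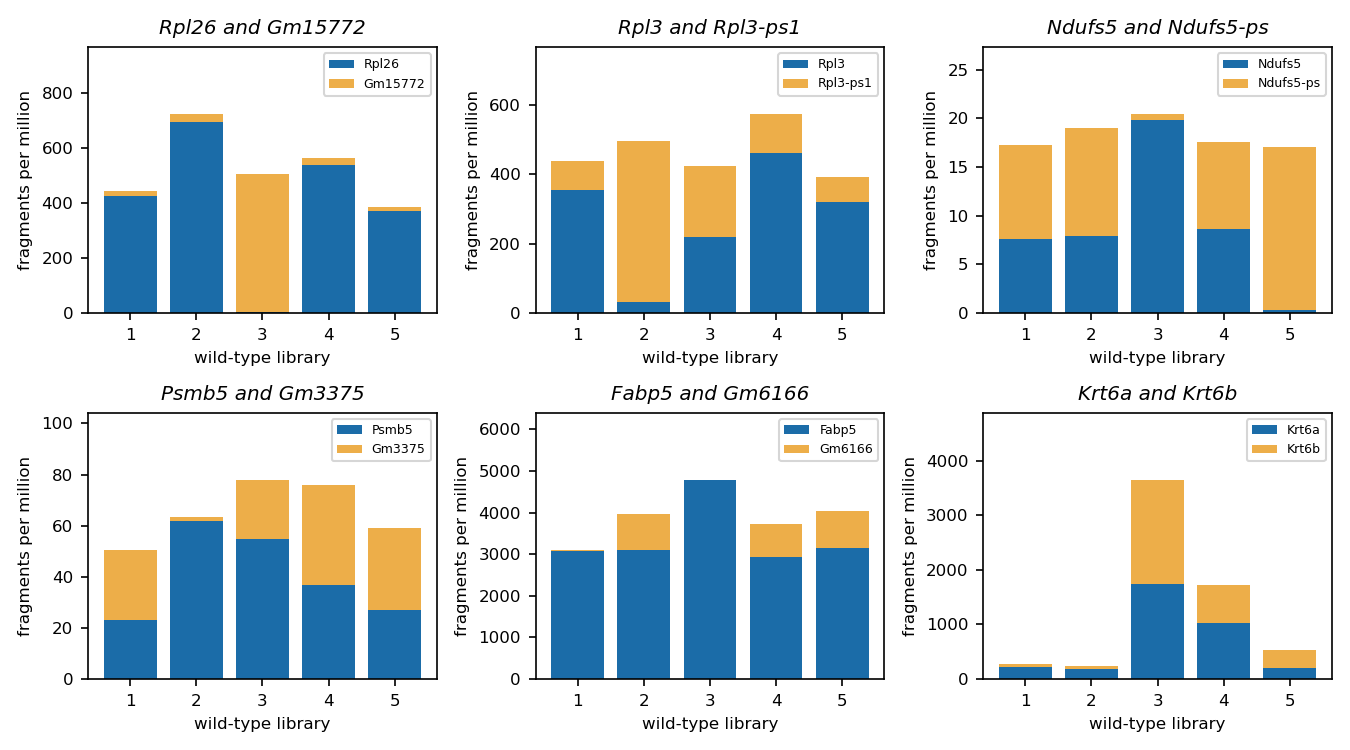
Estimated fragments per 1000000 (stacked bars from 0) of 6 pairs of genes with shared sequence in each of the 5 wild-type libraries, with the gene in blue and its copy in yellow. In the pairs of Rpl26, Rpl3, Ndufs5 and Psmb5 a library low in 1 part is high in the other and the total differs less than the parts, whereas the total of Krt6a and Krt6b is highest in wild type 3.

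Among genes with a mean of at least 20 FPKM the smallest SD was that of Ppp2cb, a catalytic subunit of protein phosphatase 2A, at 44.1, 44.6, 44.7, 45.5 and 45.8 FPKM (SD 0.022). Ap1m2, the epithelial adaptor subunit for sorting to the basolateral membrane, was at 35.1, 36.8, 35.8, 35.7 and 35.4 FPKM and the cytokine receptor kinase Jak1 at 22.2, 23.3, 22.7, 22.5 and 22.1 FPKM. Marcks, Ctsb, Dusp22, Stap2, Tmem65, Oxsr1 and Dnaja2 completed the 10 genes, all with an SD of at most 0.0498. For 2 of the 10 the SD was below that estimated for counting error, so these are at the limit of what this depth can resolve.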

How the data were processed

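RNA of wild-type esophageal epithelium was sequenced in 5 paired-end libraries. The authors deposited 1 table of FPKM per gene with 2 decimals. The tools named in the submitters' processing notes are cutadapt, HISAT2 (2.0.1) and HTSeq (0.6.1), with mm9 as the genome build. How reads that match several genes were assigned, and which annotation was used, is not given in the sources used here. The 5 columns of the mutant mice were not used.

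The spread of a gene is the SD of log2(FPKM + 1) over 5 libraries, with a pseudocount of 1 and for genes with a mean of at least 5 FPKM. Such a difference understates the change of low genes. Depth was estimated from the smallest steps of FPKM in single-exon genes of at most 1200 bases with few fragments. Of their values, 97.9 to 98.4% then came out as whole fragments, against 10.0 to 11.0% by chance. The tolerance was 0.01 fragments plus the rounding of FPKM to 2 decimals. Fragments and counting error use gene lengths from GENCODE M21 on GRCm38, which matched 52073 genes and did not match 4618. Shared sequence is the share of the 31-base sequences of a gene that occur in another gene. Promoters are from RefSeq. Python 3.11.15, numpy 2.4.6, pandas 2.3.3 and matplotlib 3.10.9 were used, and scripts were tested on simulated data.

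The genes named are the 30 most abundant, those among the 50 most variable with a mean of at least 5 FPKM, the 10 least variable with a mean of at least 20 FPKM, 5 markers, up to 10 most abundant and 4 most variable members of each of 18 lists of epithelial genes, and, of 10 lists of other cells, the 3 most abundant members and those listed at 0. Of 574 genes in the lists 3 were not found, and some members are not reported here. The members and lists were chosen with earlier results of these data known. Outside this rule, and chosen after their values were seen, are Fabp5, Actg1, Eno1, Psmb5, Rpl15, Tdg, Rpl3-ps1, Lce1c, Lce1d, Sprr1a, Sprr1b, Sprr2a1, Emp1, Pkp3, Dsc3, Dsg2, Abca12, Lamb3, Itga6, Klk5, Mcm6, Cxcr2, Fos, Arntl, Ivl, Cd207, Col1a1, Rhcg, Cldn3 and Muc16.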

Additional observations from a re-analysis of the deposited data

Results flagged for a closer look

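Of the 262 genes named in the report, 24 (9.16%) had 1 library farther from the other 4 than Dixon's 95% critical value of 0.71 allows on the log2(FPKM + 1) scale. Chance flags about 1 in 20 groups, and the genes were named in part for their spread. The library set apart was wild type 2 for 13 genes, wild type 3 for 9, wild type 1 and wild type 5 for 1 each and wild type 4 for 0. The call was made for the named genes only, so no share over all genes stands beside it. Over all genes with a mean of at least 5 FPKM, wild type 2 was highest for 31.8% and lowest for 31.4%. Wild type 3 was highest for 12.1% and lowest for 16.5%.

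Wild type 2 was low for 9 of the 13. Lor was at 634 FPKM there against at least 1804 FPKM elsewhere, Dsp at 248.5 against at least 450.1, Pkp1 at 294 against at least 469 and Jup at 87.2 against at least 169.8. These are genes of the cornified envelope and the desmosome, but the 2 lists were not low in wild type 2 throughout. Among members with a mean of at least 5 FPKM, wild type 2 was lowest for 5 and highest for 4 of 12 desmosome genes. It was lowest for 14 and highest for 11 of 38 envelope genes. Over all genes at that level it was lowest for 31.4% and highest for 31.8%. Of the genes with copies, Rpl3 was at 9.79 FPKM and Gm3375 at 2.01 FPKM. The transcription factors Barx2 and Pax9 were at 79.0 and 36.8 FPKM. The heat shock gene Hspb1 was at 174 FPKM.

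In the opposite direction, wild type 2 was high for Ehf at 227 FPKM, Emp1 at 213 FPKM, Ifi202b at 53.0 FPKM and Mir7678 at 95.2 FPKM. Wild type 3 was high for Chil4 at 245 FPKM, Fabp5 at 1338 FPKM, Gm13453 at 29.4 FPKM, Gm15772 at 1146 FPKM and the very even gene Oxsr1 at 22.9 FPKM, where the others lay between 21.1 and 21.6 FPKM. It was low for Rpl26 at 3.17 FPKM, Ndufs5-ps at 2.18 FPKM, Adh1 at 9.01 FPKM and Gm20752, which was listed at 0. Wild type 1 was low for Cst3 at 100.7 FPKM, where the others were at 152 FPKM or more, and wild type 5 for 2310046K23Rik at 5.84 FPKM.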

How the results depend on the processing

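The share of the 10 most abundant genes was 28.6% and was 27.1% with mitochondrially encoded genes left out and 20.1% when fragments replaced FPKM. It was 35.2% for 20 genes, 46.3% for 50 and 53.3% for 100, and 28.4 to 29.0% with 1 library left out. The median SD was 0.22, and it was 0.17 with a pseudocount of 5, 0.195 with the GC trend of each library removed, an alternative chosen after seeing the data, and 0.174 to 0.228 with 1 library left out, lowest without wild type 2. The 62 genes with an SD of at least 1 became 35 with a pseudocount of 5, 111 with genes from a mean of 1 FPKM up and 29 with genes that share sequence left out, and 53 to 68 with 1 library left out. Of the 50 most variable genes, 23 were shared with the list made without genes that share sequence, and 36 to 45 with 1 library left out. Median-ratio scaling and quantile normalization shared 49 each. No paired analysis was possible because no groups were compared. Values under about 1 FPKM rest on few fragments, and neither tissue from several sites nor repeat libraries of 1 mouse were analysed here, so technical and biological spread cannot be told apart.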

Other observations

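Some genes split the 5 libraries into a low and a high set with a wide gap. Among the genes with a mean of at least 5 FPKM, 36 had a gap of at least 2 on the log2(FPKM + 1) scale between neighbouring libraries when these were put in order. This was looked for after seeing the data. In 18 of the 36 the gap lay between 2 and 3 libraries, in 9 it set 1 low library apart and in 9 it set 1 high library apart, and 19 of the 36 shared at least 0.2 of their sequences with another gene. Wild type 1 and wild type 2 formed the low set for 5 genes, which were Serpinb3c, Gm8399, Bpifa5, Krt6b and Chil1. Wild type 2 and wild type 3 formed the high set for Rpl15-ps2, Rpl15-ps6 and Rnase2b, and the low set for Gm4735 and Tdg-ps2.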
